A study of Mus musculus with 4 samples.

Results

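Ltc4s and 7 other genes that mark tuft cells (Alox5ap, Dclk1, Trpm5, Avil, Pou2f3, Rgs13 and Sh2d6) were followed in the epithelium of the neonatal mouse small intestine. The 8 genes were listed by name, and all 8 were among the 32227 genes of the feature lists. Ltc4s was chosen by its measured level in an earlier comparison of the same libraries, far higher in the jejunum than in the ileum, and the tuft genes by name to go with it, so the Ltc4s difference between the regions is described here without a test. The cells were epithelium of wild-type (C57BL/6J) mice at postnatal day 6, with no treatment in any group. Each of 2 mice gave 1 jejunum library and 1 ileum library. Replicate 1 of each region was the mouse labelled male in batch 1 and replicate 2 the mouse labelled female in batch 2, so mouse, labelled sex and batch cannot be told apart.

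Tuft cells are rare chemosensory cells of the gut lining that sense luminal signals and alert the immune system to parasites. Pou2f3 is the transcription factor that specifies them, Dclk1 a microtubule-associated kinase, Trpm5 a cation channel of taste-like signaling, Avil (advillin) an actin-binding protein of their apical tuft and Rgs13 a regulator of G protein signaling. Leukotrienes are lipid mediators made from arachidonic acid by 5-lipoxygenase (Alox5) with the help of its activating protein (Alox5ap). Leukotriene C4 synthase (Ltc4s) then joins glutathione to leukotriene A4, which gives the first of the cysteinyl leukotrienes. This pathway is known from tuft cells and from mast cells, macrophages and other myeloid cells.

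The files held 36202 called cells, of which 30538 had 1000 to 6000 genes and under 20% mitochondrial UMIs (unique molecular identifiers, each counting 1 RNA molecule). The ileum kept 7309 (replicate 1) and 8505 (replicate 2) cells, and the jejunum 8999 and 5725. Their median depth was higher in the ileum (12056 and 10918 UMIs) than in the jejunum (4688 and 5881), and their median mitochondrial share was lower (3.61% and 3.74% against 6.38% and 9.94%). No kept cell shared a barcode with a kept cell of another library. Xist and Eif2s3y went against the sex label of both mice in all 4 libraries. Xist, in CPM (UMI counts scaled to the same total in every library or class), read 575 and 466 in the libraries labelled male, while those labelled female read 0.705 and 0.906. The cells formed 23 clusters, and 26451 cells were enterocyte-like, 1909 stem/progenitor-like, 259 enteroendocrine-like, 52 immune-like and 20 goblet-like by their markers, with 1847 in clusters left unnamed. No cluster met the rule for tuft cells.

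Ltc4s (ENSMUSG00000020377) was a gene of jejunal enterocyte-like cells. Over all kept cells its level was 0.172 CPM in ileum replicate 1, 0.516 CPM in ileum replicate 2, 17.5 CPM in jejunum replicate 1 and 43.3 CPM in jejunum replicate 2, from 15, 49, 1031 and 2008 UMIs. In enterocyte-like cells the levels were 0.135 and 0.422 CPM in the ileum and 18.9 and 47.7 CPM in the jejunum. The libraries of the regions did not overlap, and within each mouse the jejunal level was 140.3-fold (mouse 1) and 113-fold (mouse 2) the ileal one. The fitted log2 difference was 6.99 (SE 0.75, n = 2 libraries per region). The jejunal libraries themselves differed, with more Ltc4s in replicate 2, which also had the higher mitochondrial share. With cells limited to under 10% mitochondrial UMIs the enterocyte-like levels were 19.8 and 49.8 CPM in the jejunum and 0.124 and 0.430 CPM in the ileum. In summed counts, fewer cells with the transcript and less transcript per cell cannot be told apart. Shares of cells are given next, but at such low counts a share also falls with less transcript per cell, so they do not settle this.

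An Ltc4s UMI was found in 0.174% and 0.481% of ileal and in 9.26% and 25.1% of jejunal enterocyte-like cells. Because ileal cells were the deeper ones, depth ran opposite to this difference. When each cell was thinned to 2000 UMIs the shares were 0.0318% and 0.0551% in the ileum (2 of 6282 and 4 of 7258 cells) and 2.47% and 7.54% in the jejunum (178 of 7218 and 350 of 4644 cells). The exact 95% binomial intervals of the jejunal shares were 2.12 to 2.85% and 6.79 to 8.33%, and those of the ileum ended at 0.115% and 0.141%. Intervals of this kind cover counting error only. Most positive cells carried few molecules. Of 2049 cells with Ltc4s, 1433 had a single UMI, and the highest count was 10 UMIs, in 2 cells of jejunum replicate 2.

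**Figure D1:**
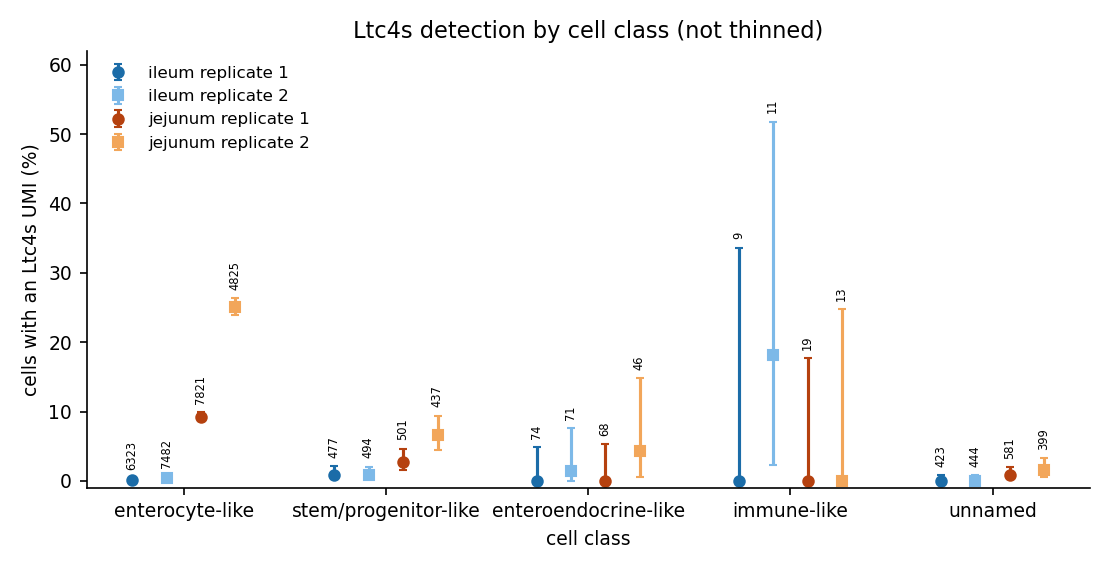
Share of cells with at least 1 Ltc4s UMI (y axis, percent) by cell class (x axis), 1 point per library with its exact 95% binomial interval and the number of cells above it. Jejunal enterocyte-like cells stand at 9.26% and 25.1%, against 0.174% and 0.481% in the ileum, and the wide intervals of the immune-like class come from its 9 to 19 cells per library.

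The RefSeq promoter of Ltc4s is shown because Ltc4s is the member with the large regional difference. These are the 250 bases before its start on the minus strand, chr11:50238533-50238782 of GRCm38.p6, which is not the build of the deposited counts.
Ltc4s promoter: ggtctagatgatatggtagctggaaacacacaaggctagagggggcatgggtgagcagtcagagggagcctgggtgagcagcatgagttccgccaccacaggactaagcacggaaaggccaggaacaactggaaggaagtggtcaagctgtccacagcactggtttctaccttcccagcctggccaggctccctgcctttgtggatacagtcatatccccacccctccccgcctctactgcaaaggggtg
It held none of 3 sequences searched on both strands, the POU octamer ATGCAAAT (in 1.60% of 32851 RefSeq promoters of that length), the GATA sequence AGATAA (9.99%) and the HNF4 sequence CAAAGTCCA (0.384%). Of the 7 promoters found for 6 members, 2 held the GATA sequence, those of Avil and Rgs13. The antisense gene Gm26542 overlaps Ltc4s, and whether counting used strand is not stated, so reads of the pair cannot be told apart where they overlap. Gm26542 itself read 7.05 and 5.87 CPM in ileal and 8.38 and 9.78 CPM in jejunal enterocyte-like cells, a log2 difference of 0.61 (SE 0.19) that was not called (edgeR quasi-likelihood test, Benjamini-Hochberg adjusted p = 0.111). Mgat4b, the next gene, read 49.8 and 48.9 CPM against 39.6 and 34.5 CPM and was not called either (adjusted p = 0.204 by the same edgeR fit).

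In the jejunum Ltc4s lay almost wholly in enterocyte-like cells. They held 98.2% (95% interval 97.1 to 98.9%) of its UMIs in replicate 1 and 97.96% (97.2 to 98.5%) in replicate 2, and 91.1% and 88.9% of all UMIs of those libraries. In the ileum they held 73.3% (11 of 15 UMIs) and 77.6% (38 of 49 UMIs), below their share of all UMIs (93.6% and 94.8%). Stem/progenitor-like cells, the dividing cells of the crypt, had lower levels in the jejunum, 4.20 and 9.30 CPM, and 1.22 and 1.29 CPM in the ileum from 4 UMIs in each library. The jejunal crypt level was therefore 22.2% and 19.5% of the enterocyte-like level. For 14 enterocyte markers the same share had a median of 16.02% and 17.5%. In the ileum the crypt level, from 4 UMIs per library, was 905% and 307% of the enterocyte-like one beside marker medians of 21.1% and 18.5%. The part of free RNA in them was not tested. In the remaining jejunal classes Ltc4s had 2 UMIs in 114 enteroendocrine-like cells, 11 UMIs in 980 cells of unnamed clusters, and 0 UMIs in 32 immune-like and 14 goblet-like cells. At 2000 UMIs per cell it was found in 0.211% and 1.69% of jejunal stem/progenitor-like cells (1 of 474 and 7 of 413) and in 0 of 59 and 1 of 45 enteroendocrine-like cells.

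Within the jejunum, Ltc4s levels varied among enterocyte-like clusters. Of 16 such clusters, 14 had at least 20 cells in both jejunal libraries. The levels ran from 49.0 and 101 CPM in the jejunal cells of cluster 6 (374 and 246 cells) to 5.73 and 6.90 CPM in those of cluster 9 (373 and 177 cells). Cluster 6 was led, over all 4 libraries, by Fabp6, the ileal bile acid binding protein, and Aldh1a1, a retinaldehyde dehydrogenase. Cluster 2, led by Anxa8 and Fabp6, came next with 31.4 and 67.0 CPM. Clusters 6 and 2 also held ileal cells (506 and 721, 687 and 863), so their leading genes need not mark their jejunal cells. Fabp6 had a UMI in 0.414% and 0.165% of jejunal enterocyte-like cells with Ltc4s, not thinned, and in 0.268% and 0.277% of the others. Cluster 0, the one with most jejunal cells (1415 and 1054) and led by the jejunal genes Serpina1a and Cd36, had only 5.10 and 19.9 CPM. Cluster 4, led by Leap2 and Nr0b2, had 13.1 and 40.2 CPM. The same clusters in the ileal libraries had 0 to 2.62 CPM. Clusters were formed from all genes, so these levels are a description.

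**Figure D2:**
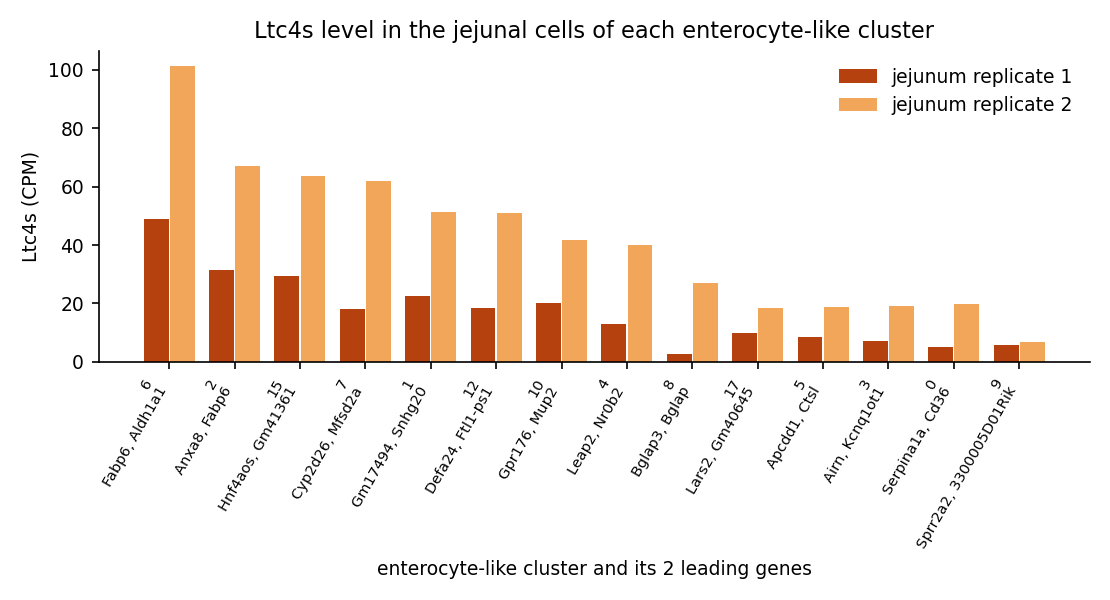
Ltc4s level (y axis, CPM from summed UMIs, axis from 0) in the jejunal cells of the 14 enterocyte-like clusters with at least 20 cells in both jejunal libraries, ordered by the mean of the libraries, with the cluster number and its 2 leading genes on the x axis. Bars are single libraries, replicate 1 dark and replicate 2 light, and cluster 6 is highest in both. Leading genes are those of the cells of all 4 libraries.

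Ltc4s was next set against 5 markers of jejunal enterocytes (Cd36, a fatty acid transporter, Fam13a, Paqr9, Mfsd2a, a lysophospholipid transporter, and Serpina1a, a protease inhibitor). Without thinning, the share of jejunal enterocyte-like cells with Ltc4s rose with the number of these markers seen in the cell, from 2.52% at 0 markers to 17.04% at 5 in replicate 1 and from 2.50% to 32.6% in replicate 2. Deeper cells hold more of every gene. At 2000 UMIs per cell the share was 2.15% in cells with at most 1 marker and 2.72% in cells with at least 3 in replicate 1 (n = 3072 and 1874 cells), and 8.78% and 6.54% in replicate 2 (n = 968 and 2278 cells). The libraries thus differed in direction once depth was equal, but within each library the exact 95% intervals overlapped. They were 1.67 to 2.73% and 2.03 to 3.56% in replicate 1, and 7.07 to 10.7% and 5.56 to 7.64% in replicate 2. Cells with Ltc4s had a mean of 1.88 and 2.35 markers against 1.80 and 2.48 in cells without. At this depth, 87.6% and 96.6% of the jejunal enterocyte-like cells with Ltc4s also had at least 1 jejunal marker, close to the 87.3% and 95.3% of those without. Single markers went both ways. Fam13a was seen in 64.0% and 68.3% of cells with Ltc4s against 54.2% and 64.998% of the others, and Serpina1a in 27.5% and 37.4% against 36.0% and 42.9%. The 5 ileal markers (Fabp6, Afp, Anxa8, Cpne8 and Bex4) were rarer in cells with Ltc4s, where 12.9% and 1.71% had any of them against 20.1% and 4.49%. Among ileal cells with at least 3 ileal markers, Ltc4s was found in 0 of 702 and 0 of 825 cells thinned to 2000 UMIs. The exact 95% intervals end at 0.524% and 0.446%, above the share of all ileal enterocyte-like cells at that depth, so these zeros show no lower share. Without thinning it was found in 6 of 3665 (0.164%) and 15 of 4337 (0.346%) such cells. In ileal cells with at most 1 ileal marker the shares were 0.132% and 0.394%.

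**Figure D3:**
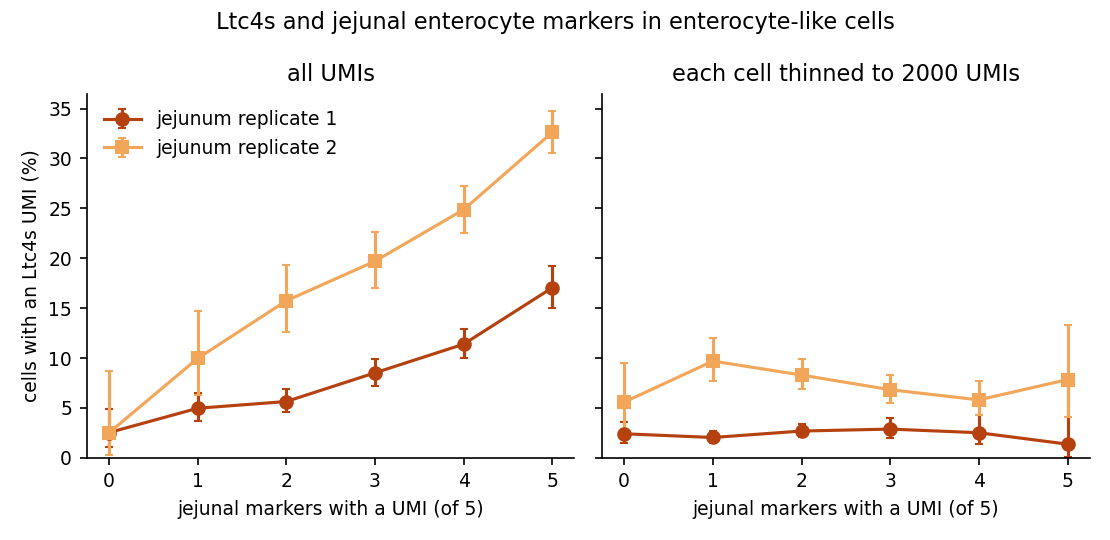
Share of jejunal enterocyte-like cells with an Ltc4s UMI (y axis, percent, exact 95% binomial intervals) by how many of 5 jejunal markers had a UMI in the cell (x axis), 1 line per jejunal library. With all UMIs (left) the lines rise to 17.04% and 32.6%, and with each cell thinned to 2000 UMIs (right) they stay between 1.37% and 9.69%.

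Pou2f3 was found across the epithelium rather than in rare cells. It read 98.2 and 93.9 CPM in the ileum and 84.2 and 82.9 CPM in the jejunum, and it had a UMI in 14241 of the 30538 kept cells. Its level was higher in stem/progenitor-like cells (176 and 166 CPM in the ileum, 170 and 155 CPM in the jejunum) than in enterocyte-like cells (96.5, 92.5, 79.9 and 77.6 CPM). At 2000 UMIs per cell it was seen in 27.6%, 30.0%, 27.4% and 19.1% of stem/progenitor-like cells and in 16.7%, 15.4%, 13.2% and 13.2% of enterocyte-like cells, in the order of ileum and then jejunum. Immune-like cells had it too, at 106 to 241 CPM. These levels are of counts assigned to the gene, and the isoform behind them was not analyzed here.

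Dclk1 and Avil were low but present in every library. Dclk1 read 2.21 and 2.23 CPM in the ileum and 2.86 and 4.81 CPM in the jejunum. It was seen in 784 cells, of which only 12 had over 1 UMI. The sum of the unnamed clusters read 5.75 to 26.3 CPM per library, above the 1.90 to 4.10 CPM of enterocyte-like cells. The unnamed clusters were not alike in Dclk1. An unnamed cluster of 432 cells read 54.5 CPM, with Dclk1 in 12.7% of its cells. It had 8 of the stem/progenitor markers and 1 of the tuft markers. The other unnamed cluster, of 1415 cells, read 3.57 CPM, with Dclk1 in 1.27%. Avil read 2.56 and 0.768 CPM in the ileum and 3.27 and 2.29 CPM in the jejunum, in each region higher in mouse 1. It was seen in 533 cells, and 10 of the 52 immune-like cells held 13 of its 594 UMIs (22.3 to 53.1 CPM). Dclk1 had 0 UMIs in the immune-like cells.

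Trpm5, Rgs13, Sh2d6 and Alox5ap each had under 200 UMIs in all libraries together. Trpm5 had 24 and 5 UMIs in the ileal and 22 and 4 UMIs in the jejunal libraries, and 3 enterocyte-like cells held 27 of the 55 (16 in 1 cell of ileum replicate 1, and 6 and 5 in cells of jejunum replicate 1). Of the other 5 tuft genes, only Pou2f3 was seen in any of these 3 cells. Rgs13 had 13, 24, 11 and 8 UMIs, of which 11 came from 1 enterocyte-like cell of ileum replicate 2. Sh2d6, an SH2 domain protein, had 41, 30, 34 and 18 UMIs and never over 1 per cell. Alox5ap had 13, 11, 15 and 18 UMIs in 49 cells. In 3 immune-like cells (1 of ileum replicate 2, 1 of each jejunal library) it had 1, 3 and 7 UMIs, and each of these cells carried 7 of 12 markers of mast cells and basophils, among them the proteases Mcpt1 (32, 43 and 7 UMIs) and Mcpt2 (20, 6 and 45 UMIs). Alox5 and Ltc4s were at 0 in the 3 cells.

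The only immune-like cells with Ltc4s were 2 cells of ileum replicate 2, with 1 and 5 UMIs. They carried 9 and 8 of 9 macrophage and monocyte markers, such as Csf1r (14 and 17 UMIs) and C1qa (30 and 31 UMIs). They gave 6 of the 49 Ltc4s UMIs of that library, and had no mast cell marker, no Alox5 and no Alox5ap. Over all kept cells the macrophage and monocyte list summed to 184 to 209 CPM per library (207 and 184 CPM in the ileum, 190.0 and 209 CPM in the jejunum), with 7 to 9 of its 9 genes seen. Such sums run over cells of every class, and only 0.170% of kept cells were immune-like. Ileum replicate 1 and jejunum replicate 2, with 7 of the 9 genes seen, read no lower than the others. The sums are thus no measure of macrophages, and which cells hold these UMIs was not tested. The mast cell and basophil list summed to 8.02 and 6.14 CPM in the ileum and 12.3 and 8.72 CPM in the jejunum, with 9 or 10 of 12 genes seen.

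**Figure D4:**
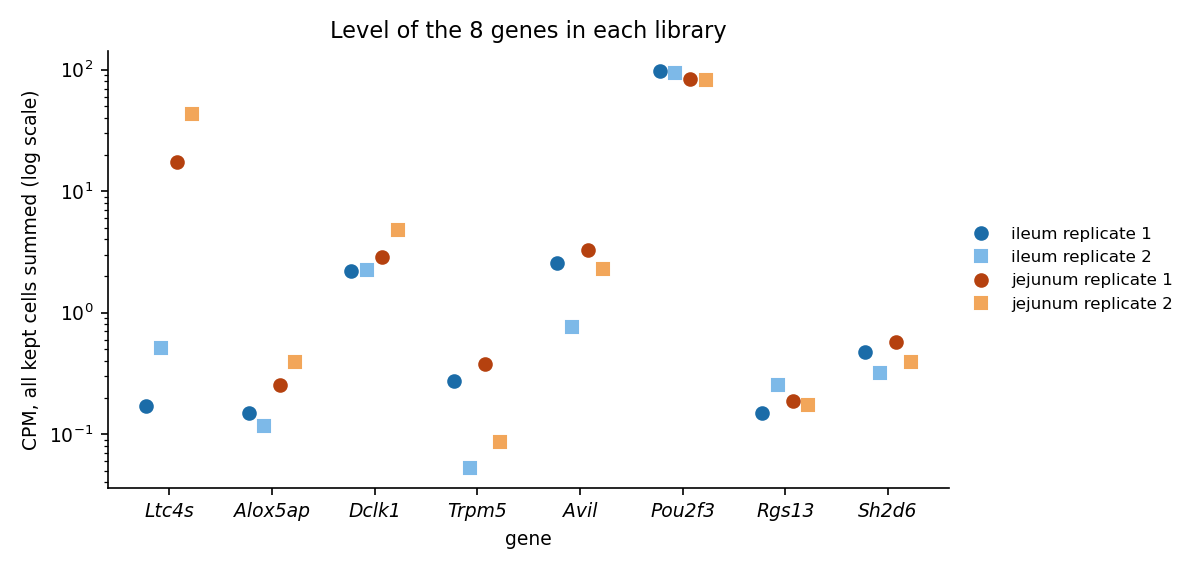
Level of each of the 8 genes (y axis, CPM of all kept cells summed, log scale) in the 4 libraries (points), to be compared within a gene. Ltc4s is the gene whose jejunal points (17.5 and 43.3 CPM) stand far above its ileal points (0.172 and 0.516 CPM), while Pou2f3 lies between 82.9 and 98.2 CPM in all libraries.

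Between the regions, none of the 7 genes was called in enterocyte-like cells. All 8 members were among the 19636 genes that passed the filter on low counts, and 7.18% of those genes were called in either direction (edgeR quasi-likelihood test on summed counts, Benjamini-Hochberg adjusted p under 0.05). At that background 0 called of 7 is no result about these genes, and 5663 genes had an unadjusted p under 0.05. The log2 differences, jejunum over ileum, were -0.15 (SE 0.12) for Pou2f3, 0.84 (SE 0.33) for Dclk1, 0.88 (SE 0.58) for Avil, 0.95 (SE 0.48) for Alox5ap, 0.66 (SE 0.92) for Trpm5, 0.21 (SE 0.59) for Rgs13 and 0.45 (SE 0.36) for Sh2d6. Their adjusted p-values from the edgeR fit ran from 0.165 (Dclk1) to 0.836 (Rgs13). Dclk1 passed without jejunum replicate 1 (log2 difference 1.19, edgeR adjusted p = 0.045), where jejunum replicate 2 stood alone and was taken to vary like the ileum. In stem/progenitor-like cells 2.68% of 12776 genes were called (1.09% higher in the jejunum and 1.59% in the ileum). Of the members, Ltc4s (log2 difference 2.44, SE 0.60), Dclk1, Avil and Pou2f3 passed the filter there, and the 3 that could be tested were not called.

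No Ltc4s UMI was found in cells with several tuft genes. Tuft-gene cells were set as kept cells with a UMI of at least 3 of the genes Dclk1, Trpm5, Avil, Pou2f3, Rgs13 and Sh2d6, so that Ltc4s and Alox5ap stayed out of the choice. The ileal libraries held 6 and 2 such cells and the jejunal ones 2 and 5, together 15 of 30538 cells in all (0.0491%). Their share could not be told apart between ileum and jejunum (-0.00198 percentage points, ileum minus jejunum, exact two-sided permutation test over libraries p = 1.0, where the smallest p that 2 against 2 libraries allow is 0.333). No cell had 4 of the 6 genes. All 15 had Pou2f3, 13 had Dclk1 and 10 had Avil, and Trpm5 was in none. Of these cells, 8 were enterocyte-like and 7 stem/progenitor-like. They held 208666 UMIs in all, with 0 UMIs of Ltc4s and 0 of Alox5ap. At the enterocyte-like levels of their libraries 3.43 Ltc4s UMIs would fall in them. That number is too high for the jejunal cells of the crypt class, where Ltc4s read only 4.20 and 9.30 CPM. In jejunum replicate 2, 4 of the 5 tuft-gene cells were stem/progenitor-like. A count of 0 is therefore no sign of a lower level in tuft-gene cells. In the jejunal tuft-gene cells a count of 0 allows up to 144 and 47.5 CPM, which lies above the enterocyte-like level in replicate 1 (18.9 CPM) and at it in replicate 2 (47.7 CPM).

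The 5664 called cells outside the limits gave 11 more tuft-gene cells, all with over 6000 genes, and again 0 with Ltc4s. Among 26 kept cells with 2 of the 5 genes other than Pou2f3, 0 had Ltc4s. A looser rule of at least 2 of 6 genes took 853 cells, 842 of them with Pou2f3, of which 93 had Ltc4s. Those 853 cells, of which 101 were stem/progenitor-like, held 158 Ltc4s UMIs. At the enterocyte-like level of their libraries they would hold 142.6. Against enterocyte-like cells of the same libraries, Ltc4s in them differed by 0.05 (SE 0.15) on the log2 scale in the jejunum (edgeR adjusted p = 0.979) and by -0.17 (SE 1.00) in the ileum (edgeR adjusted p = 0.967).

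In pairs, the tuft genes met in the same cells little more often than their shares alone would give. The 6 rarer genes (all but Ltc4s and Pou2f3) form 15 pairs, which were seen together 30 times in the same cell, and the product of their shares of kept cells would give 25.2. Of the 15 pairs, 5 were never seen. Ltc4s was seen with Dclk1 in 76 cells (62.5 from the product of shares), with Avil in 48 (35.3) and with Alox5ap in 5 (3.77). With Rgs13 it was seen in 6 cells (2.75), with Sh2d6 in 7 (6.97) and with Trpm5 in 1 (1.99). With Pou2f3 it was seen in 1196 cells (771 from the product). Depth is shared by such pairs, and at 2000 UMIs per cell Pou2f3 was found in 14.6% and 14.3% of jejunal enterocyte-like cells with Ltc4s against 13.2% and 13.1% of those without. Dclk1 was in 0.562% and 0.571% of them against 0.753% and 1.12%.

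The 15 tuft-gene cells were compared with enterocyte-like cells over all genes. Against enterocyte-like cells of the same libraries, 0.279% of 16105 genes were called in the ileum (43 higher, 0.267%, and 2 lower) and 0.782% in the jejunum (102 higher, 0.633%, and 24 lower). These counts rest on few cells. Without jejunum replicate 2 the jejunal ones fell to 1 higher and 0 lower, and without ileum replicate 2 the ileal ones to 3 and 0. With size factors of DESeq2 in edgeR the jejunal split was 144 higher and 8 lower. Among called genes with at least 50 CPM in each tuft-gene sum, the largest differences in the ileum included Ccna2, a cyclin of S phase (log2 difference 6.75, SE 1.04), and Olfm4 (5.54, SE 0.65) and Lgr5 (5.53, SE 1.04), known from crypt stem cells, with edgeR adjusted p-values of 2.9e-07, 2.2e-13 and 1.3e-04. The others named by the same rule were Cdca7, Smpd3, Mki67, Ccnb1, Ccnd2, Aqp1 and Ccnd1, at 4.48 to 6.03. In the jejunum they were Ppp1r1b (3.84, SE 0.65), Tuba1b (3.48, SE 0.55), Hmgn1, Hmgn2, Prmt1, Krt19 and Sf3b3, and, lower in tuft-gene cells, Celf2 (-2.81, SE 0.64), Cldn4 and Stx3. The limit of 50 CPM stands for few molecules. The sums of ileum replicate 2 and jejunum replicate 1 held 20620 and 20830 UMIs, where 3 UMIs read 145 and 144 CPM. Of the 15 tuft-gene cells 7 were stem/progenitor-like, 2 and 1 in the ileal and 0 and 4 in the jejunal libraries. The comparison was with enterocyte-like cells only. Olfm4, Lgr5, Mki67 and Ccnb1 were also among the markers that named the stem/progenitor-like class. Crypt genes higher in tuft-gene cells thus cannot be told apart from the stem/progenitor-like cells among them. A comparison within 1 class was not made.

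A second list of tuft genes, none of which chose the cells, was also examined. It shares Hpgds, Ptgs1, Alox5 and Alox5ap with the leukotriene and prostanoid list. Of its 51 genes 50 were in the feature lists, and 21 of those had a UMI in at least 1 tuft-gene cell. Of the 28 genes seen in under 1% of kept cells, only Ptgs1 and Cd300lf, with 1 UMI each, were seen in a tuft-gene cell. Il25, the cytokine by which tuft cells alert innate lymphoid cells, had 1 UMI in 30538 cells, Gng13 11, Plcb2 14, Gnat3 38 and Chat, the enzyme of acetylcholine synthesis, 55. Of the list, 27 genes passed the filter in the comparison of tuft-gene with enterocyte-like cells. Myb was higher in the ileum and Myb and Sox9, both also crypt genes, in the jejunum, and 0 were lower. Over all genes 0.267% (ileum) and 0.633% (jejunum) were called higher. In the jejunum Myb and Sox9 each read 0 CPM in 1 of the tuft-gene sums, so each of those calls rests on 1 library. The median log2 difference of the list was -0.74 (ileum) and -2.42 (jejunum), beside -0.64 and -1.04 for all genes. Another 12 genes of the list were seen in at least 10% of cells, with Krt18, a keratin of the simple epithelium, in 94.2% and Hpgds, prostaglandin D synthase, with 27554 UMIs in 13511 cells. Between the regions in enterocyte-like cells, 39 genes of the list could be tested, of which Il13ra1, a receptor chain for interleukin 13, was higher in the jejunum (log2 difference 1.28, SE 0.17, edgeR adjusted p = 0.022) and Tspan6, a tetraspanin, in the ileum (-1.17, SE 0.18, edgeR adjusted p = 0.029). These 2 of 39 stand beside the 7.18% of all genes called, so they are no result about the list. In stem/progenitor-like cells 1 of 20 (2.68% of all genes), Chn2, a Rac GTPase-activating protein, was higher in the jejunum (0.80, SE 0.17, edgeR adjusted p = 0.035).

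Around Ltc4s, genes of the leukotriene and prostanoid pathways were called in both directions in enterocyte-like cells. Of 38 further leukotriene and prostanoid genes in the feature lists, 28 passed the filter, 3 were higher in the jejunum, 3 in the ileum and 22 were not called. The share called was 2.99% of all genes for the jejunum and 4.19% for the ileum. The median log2 difference of the list was 0.24, and that of all genes 0.009.

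The start of the pathway was barely seen. Alox5 read 0.208 and 0.222 CPM in ileal and 0.429 and 0.291 CPM in jejunal enterocyte-like cells, Alox5ap 0.159, 0.0777, 0.205 and 0.218 CPM. Neither was called. Of the enzymes that use leukotriene A4, Lta4h, which makes leukotriene B4, stood at 199, 218, 229 and 223 CPM, and was not called (log2 difference 0.22, SE 0.14, edgeR adjusted p = 0.339). The microsomal glutathione transferases Mgst2 and Mgst3, relatives of Ltc4s, read 96.3 and 129 CPM against 76.9 and 50.9 CPM, and 114 and 148 CPM against 192 and 195 CPM. Neither was called in enterocyte-like cells (edgeR adjusted p = 0.136 and 0.092), and Mgst3 was called with the mouse as a replicate block (edgeR adjusted p = 0.029). In stem/progenitor-like cells Mgst3 was higher in the jejunum (190 and 189 CPM against 322 and 319 CPM, log2 difference 0.79, SE 0.13, edgeR adjusted p = 0.012).

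After the synthase, Ggt1, which turns leukotriene C4 into D4, was higher in the jejunum. It read 9.48 and 10.9 CPM in the ileum and 21.3 and 28.4 CPM in the jejunum (log2 difference 1.40, SE 0.22, edgeR adjusted p = 0.029). Both leukotriene B4 receptor genes were higher in the jejunum as well. Ltb4r1 read 4.62 and 6.84 CPM against 22.0 and 28.8 CPM (2.25, SE 0.29, edgeR adjusted p = 0.022). Ltb4r2 read 2.77 and 3.77 CPM against 12.6 and 14.4 CPM (2.15, SE 0.25, edgeR adjusted p = 0.019). Both genes lie next to each other in the genome.

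Cysltr1, the receptor for cysteinyl leukotrienes, ran the other way. It read 38.6 and 31.6 CPM in ileal and 2.74 and 0.194 CPM in jejunal enterocyte-like cells (log2 difference -4.44, SE 0.91, edgeR adjusted p = 0.049). The adjusted p was 0.066 with no filter on low counts and 0.129 without ileum replicate 1 by the same edgeR test. In stem/progenitor-like cells it read 39.3 and 31.7 CPM against 6.90 and 0.846 CPM (-3.17, SE 0.50, edgeR adjusted p = 0.0088), while DESeq2 gave an adjusted p of 0.197. Its regions did not overlap in either class, and the jejunum of mouse 2, with the most Ltc4s, had the least Cysltr1. Hpgd, which breaks down prostaglandins, was higher in the ileum (3.18 and 5.19 CPM against 0.448 and 0.777 CPM, -2.68, SE 0.43, edgeR adjusted p = 0.030). So was Ptges3 (315 and 283 CPM against 175 and 155 CPM, -0.75, SE 0.13, edgeR adjusted p = 0.035), a co-chaperone that can act as a prostaglandin E synthase. Of these 6 calls, each was lost without at least 1 of the libraries. Hpgds read 118, 114, 72.4 and 79.1 CPM and was not called (edgeR adjusted p = 0.086), and was with the replicate block (edgeR adjusted p = 0.041).

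**Figure D5:**
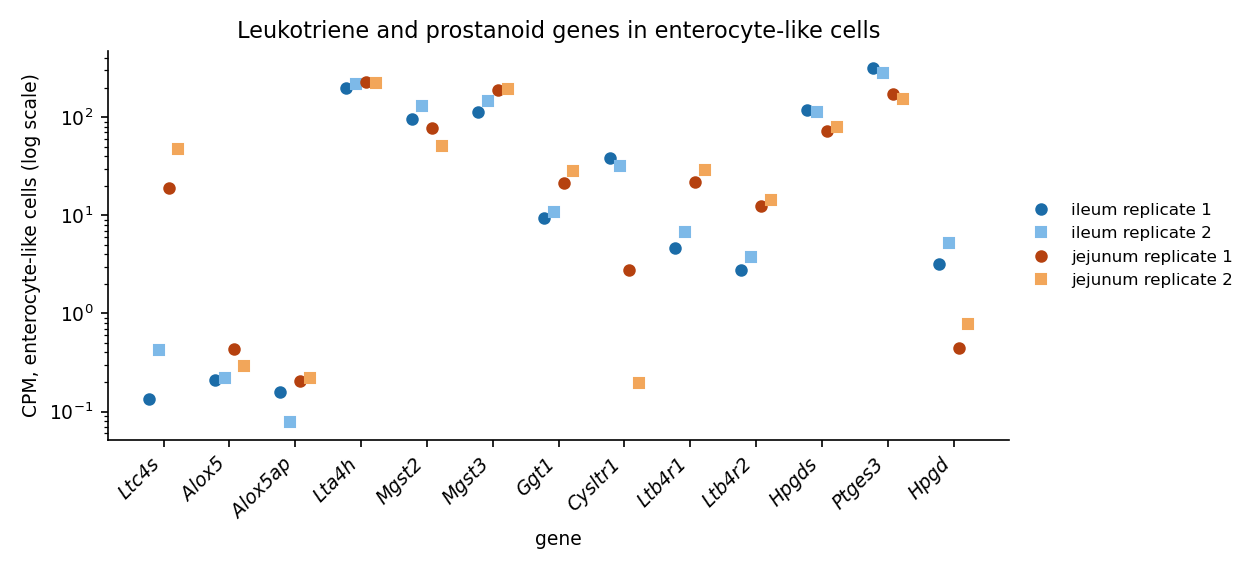
Level in enterocyte-like cells (y axis, CPM, log scale) of Ltc4s and 12 further genes of leukotriene and prostanoid synthesis, breakdown and reception (x axis), with 1 point per library, to be compared within a gene. Ltc4s (no test) and the called genes Ggt1, Ltb4r1 and Ltb4r2 are higher in both jejunal libraries, and the called Cysltr1, Ptges3 and Hpgd in both ileal ones. Of the genes not called, Alox5, Alox5ap, Lta4h and Mgst3 also lie higher in both jejunal libraries, and Mgst2 and Hpgds in both ileal ones. Alox5 and Alox5ap lie below 1 CPM throughout.

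Genes with a pattern like that of Ltc4s over classes and libraries were looked for among all genes. Likeness was the Pearson correlation of log2(CPM + 5) over 16 sums (4 cell classes in 4 libraries) among 10892 genes that reached 20 CPM in at least 1 sum. Since the sums share their libraries, it is given as a description. Cyp3a25, a cytochrome P450, was closest (r = 0.89). It read 0.955 and 2.04 CPM in ileal and 13.8 and 31.8 CPM in jejunal enterocyte-like cells, so its higher jejunal library was that of mouse 2, as for Ltc4s. Casp6, a caspase, followed (r = 0.89), then Ech1 (r = 0.86), which acts in fatty acid oxidation, Bpnt1, a nucleotidase (r = 0.85), and Cntnap1 (r = 0.84). Of the tuft genes only Dclk1 and Pou2f3 reached 20 CPM in a sum, and both had r = 0.07.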

How the data were processed

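The authors released epithelium with EDTA and dispase, captured cells by templated emulsification (PIPseq, 3′ chemistry). UMIs were called with pipseeker at sensitivity level 3. The deposited matrices hold whole-number UMI counts per gene and called cell. The submitters' processing notes name GRCm39. The reference tables at hand were of GRCm38, so no position on the files' build is given. The 8 genes, all gene lists and the tests were chosen with earlier results of these data known.

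Cells with 1000 to 6000 genes and under 20% mitochondrial UMIs were kept, after the limits of the study. Scrublet (scanpy 1.11.5, Python 3.11.15) marked 0 to 3 cells per library, too few to have worked, so no cell was removed as a doublet, and leaving out the top 6% of scores was tried. Seurat 5.3.0 in R 4.3.3 integrated the libraries (2000 variable genes, 30 dimensions) and clustered at resolution 1. Clusters were named from marker lists. A class other than enterocyte needed 3 markers, each in at least 10% of a cluster's cells and higher there than elsewhere by over 1 log2 unit. The data had been seen when these limits were set.

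CPM are UMIs summed per library and class over the total of that sum. Sums were compared with edgeR 4.0.16 (quasi-likelihood test, filterByExpr, TMM, Benjamini-Hochberg, called at an adjusted p under 0.05), with region as the only term, or with the library as a block for tuft-gene against enterocyte-like cells. The scripts were tested on simulated data. Of simulated log2 changes of 1 and 2 between regions, 29.6% and 81.4% were called in enterocyte-like cells. In stem/progenitor-like cells 56.9% and 90.1% were called. For tuft-gene against enterocyte-like cells, 21.1% (ileum) and 12.1% (jejunum) of changes of 2 were called. A gene that was not called can therefore still differ. The regions came from the same mice. Deviations of same-numbered libraries from their region means correlated at 0.28 over 19636 genes in enterocyte-like and at 0.22 over 12776 genes in stem/progenitor-like sums, and the fit with the mouse as a block was an alternative, beside DESeq2 1.42.0. Beside the members, genes were named if called, or among the 8 highest, in a list; if among the 10 largest called differences with at least 50 CPM in each tuft-gene sum; if among the 6 most like Ltc4s, of which 1 is not reported here; or if next to Ltc4s. Single cells and clusters were singled out after their values were seen. Replicates are 2 mice, each prepared once.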

Additional observations from a re-analysis of the deposited data

Results flagged for a closer look

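Rgs13 moved in opposite directions in the 2 mice. In enterocyte-like cells its level in the jejunum minus that in the ileum was 0.0823 CPM in mouse 1 and -0.0520 CPM in mouse 2. The difference between the mice was not tested. In mouse 2, 11 of the ileal UMIs came from 1 cell. The other members moved the same way in both mice.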

How the results depend on the processing

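The mouse as a replicate block raised the counts of called genes from 587 higher in the jejunum and 823 in the ileum to 1405 and 1786 in enterocyte-like cells, and from 139 and 203 to 517 and 660 in stem/progenitor-like cells. Beyond the genes named in the report, it also called Dpep1 and Gpx4 in enterocyte-like cells and Mgst2, Hpgds and Gpx4 in stem/progenitor-like cells, and it changed no other call of the named genes. DESeq2 gave 1326 and 1749 in enterocyte-like cells. With no filter on low counts the jejunal count was 354 there, and 365 and 494 were called in stem/progenitor-like cells. Leaving out 1 library gave 56 to 1022 and 92 to 998 (both lowest without ileum replicate 1), and 185 to 366 and 244 to 545. In these fits the Ltc4s log2 difference ran from 6.11 to 8.10 in enterocyte-like cells and from 1.76 to 2.90 in stem/progenitor-like cells, lowest in both without jejunum replicate 2, and it moved by less than its SE under the other alternatives.

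For tuft-gene against enterocyte-like cells, counts are given as higher and lower in tuft-gene cells. At least 2 of 6 tuft genes gave 324 and 576 (ileum) and 1352 and 1595 (jejunum). DESeq2 gave 94 and 1 in the ileum and 0 lower in the jejunum. Without the replicate block they were 27 and 0 in the ileum, with 5 lower in the jejunum. Lower genes numbered 0 (ileum) and 1 (jejunum) without the top doublet scores, 14 (jejunum) with the mitochondrial share under 10%, and 8 (jejunum) with DESeq2 size factors, which moved the median of all genes from -0.64 to -0.37 in the ileum and from -1.04 to -0.60 in the jejunum. Leaving out 1 library gave 3 to 39 and 0 to 1 in the ileum, and 1 to 131 and 0 to 88 in the jejunum. A rule of at least 4 of 6 genes left no cells, and the comparison of regions within tuft-gene cells was not run because libraries held 2 to 6 of them.

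The difference in tuft-gene cells between the regions (-0.00198 points) turned to 1.01 points with at least 2 of 6 genes and ran from -0.0345 to 0.0306 points when 1 library was left out, at 0.0273 without ileum replicate 2. Clusters at resolution 0.5 put 94.1% of jejunal and 71.1% of ileal Ltc4s UMIs in enterocyte-like cells, as means of libraries, and at least 2 of 6 tuft genes put 5.11% and 4.35% in tuft-gene cells. Mean Ltc4s detection, 5.00% in the jejunum and 0.0435% in the ileum at 2000 UMIs, was 10.9% and 0.123% at 4000 UMIs and 17.2% and 0.328% without thinning. The share with 3 or more jejunal markers minus that with 1 or fewer turned from -0.834 to 13.5 points without thinning, where deeper cells hold more of both. Causes of the other shifts were not tested. The comparison of tuft-gene cells rests on 15 cells from 2 mice, which limits what it can show.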
